A study of Homo sapiens with 6 samples.

Results

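The DMPK family of serine/threonine kinases is represented here by 7 of the 17064 genes in the deposited table. They are CDC42BPA, CDC42BPB and CDC42BPG, which encode MRCKα, MRCKβ and MRCKγ, ROCK1 and ROCK2, DMPK, and CIT, which encodes citron kinase. They were chosen by gene symbol, with no use of their measured values, and all 7 were listed. RNA was sequenced from MDA-MB-231 cells, an established human triple-negative breast cancer line, to ask how the loss of MRCKα, of MRCKβ or of both (DKO) alters gene expression. Cells were transduced with the lentiviral vector lentiCRISPRv2, either empty or carrying guides against the coding regions of CDC42BPA and CDC42BPB, and were selected with puromycin or blasticidin. There were 2 vector control libraries from separate transductions, 1 MRCKα KO library, 1 MRCKβ KO library and 2 DKO libraries, which were made with different guide sets. The guide behind each single knockout library and each DKO library is not given in the sources used here. No single clones were picked, so each library is of a selected transduced population.

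The deposited files give 2 values for each gene. The expected count estimates how many reads came from the gene and may be fractional. FPKM corrects the reads for the length of the transcript and the size of the library, so levels of different genes can be compared on it. The total of the expected counts was 10657857 and 10349898 in vector 1 and 2, 10368422 in MRCKα KO, 10632556 in MRCKβ KO, and 10461053 and 10510366 in DKO 1 and 2, and the highest total was 2.98% above the lowest. Only vector and DKO have replicates. A single knockout library set against vector therefore has no check by replicates and no p of its own. The single knockouts entered tests only in comparisons over all 6 libraries. The edgeR values given below as with CDC42BPA or CDC42BPB targeted come from an additive model of both targets, in which each is adjusted for the other, so they are not plain differences between the 3 libraries with a gene targeted and the 3 without. The overlap counts and ratio tests do set these 3 against 3. In the interaction test each single knockout is an arm of 1 library, assumed to vary like the other groups. All comparisons share the vector libraries, so their values are given side by side and are not independent of each other.

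The MRCK, ROCK and citron kinases bind small GTPases, MRCKs binding Cdc42 and Rac, and ROCKs and citron binding RhoA. MRCK and ROCK kinases phosphorylate the regulatory subunit of myosin phosphatase, myosin light chain and LIM kinases, and thereby promote actomyosin contraction. In breast cancer cells both groups are known for their part in cell shape, migration and invasion.

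The labelled cell line was compared with marker genes. Of 5 genes of mesenchymal-like breast cancer lines, 4 had a mean above 1 FPKM, with VIM (vimentin) the most abundant at a mean of 1700 FPKM and SPARC low at 0.547 FPKM. The summed level of this list was 1950 and 2650 FPKM in vector 1 and 2, 1930 in MRCKα KO, 2040 in MRCKβ KO, and 1950 and 2370 in DKO 1 and 2. All 4 keratins of simple epithelia were above 1 FPKM, led by KRT8 at a mean of 185 FPKM, with sums of 510, 435, 463, 506, 459 and 337 FPKM in the same library order. Of 7 luminal and hormone receptor genes, 3 were above 1 FPKM, with ERBB2 at 14.4, GATA3 at 3.55 and EPCAM at 1.95 FPKM. PGR was at 0.02, FOXA1 at 0.0717, CDH1 at 0.448 and ESR1 at 0.703 FPKM. The sums of this list were 22.2, 21.7, 18.4, 22.2, 21.9 and 20.4 FPKM. The low hormone receptor and E-cadherin levels beside high vimentin go with the labelled line.

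Markers of other cell types were low. The most abundant leukocyte marker was CD14 at a mean of 0.657 FPKM, CD3E was at 0.01 FPKM, and 3 of 4 listed genes were in the table, with sums of 1.53, 0.47, 1.65, 2.17, 1.48 and 0.6 FPKM. The 3 endothelial markers summed to 1.94, 0.96, 1.18, 1.55, 1.22 and 1.09 FPKM, with PECAM1 the highest at a mean of 1.28 FPKM and CDH5 and VWF near 0. The 5 fibroblast markers summed to 10.4, 3.73, 4.44, 7.09, 5.87 and 3.78 FPKM, led by PDGFRB at a mean of 3.06 FPKM, with LUM at 0.0467 and DCN at 0.105 FPKM. The leukocyte, endothelial and fibroblast sums were each higher in vector 1 than in vector 2, and in DKO 1 than in DKO 2. CDC42BPA and ROCK1, described below, had gaps in the same direction in both replicate pairs. The part of these sums in those gaps was not tested. Of 5 genes of skeletal muscle, a tissue in which DMPK is strongly expressed, 1 was in the table, ACTA1, at a mean of 0.0983 FPKM.

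The targeted genes were examined first. CDC42BPA lies on the minus strand of chr1:226989865-227318474 and CDC42BPB on the minus strand of chr14:102932379-103057462 (GRCh38, GENCODE v29). In both genes the guides given in the study's methods lie within or across the first coding bases of exon 1, which are shown for this reason, 5′ to 3′ on the coding strand, with the start codon in capitals. They span chr1:227317108-227317182 for CDC42BPA and chr14:103057099-103057173 for CDC42BPB.
CDC42BPA: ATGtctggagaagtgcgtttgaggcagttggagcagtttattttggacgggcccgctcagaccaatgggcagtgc
CDC42BPB: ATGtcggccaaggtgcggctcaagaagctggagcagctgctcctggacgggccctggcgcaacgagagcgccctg
Small edits at these bases can leave a transcript in place. No library with a gene targeted lacked its RNA, so the RNA level does not check the labels, and protein was not analysed here. In bulk samples fewer cells with a transcript and less transcript per cell cannot be told apart.

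CDC42BPA, whose product MRCKα is a Cdc42 effector that acts on myosin, was at 36.43 and 23.32 FPKM in vector 1 and 2, 29.43 in MRCKα KO, 34.94 in MRCKβ KO, and 28.31 and 26.06 in DKO 1 and 2. The vector libraries were its highest and its lowest, and the 3 libraries in which it was targeted lay between them. Its expected count was between 2354 and 3851, and it was above 78.3% to 86.1% of the listed genes of a library. The edgeR log2 fold change with CDC42BPA targeted, over all 6 libraries, was -0.24 ± 0.18 (SE, unadjusted p = 0.224, adjusted p = 1), and in DKO against vector it was -0.16 ± 0.22 (SE, unadjusted p = 0.483, adjusted p = 1). The DKO value turned to 0.21 without vector 1 and was -0.46 without vector 2, so the direction depended on which vector library was used. The value with CDC42BPA targeted was -0.08 without MRCKβ KO, -0.11 without vector 1, -0.38 without vector 2 and -0.40 without MRCKα KO.

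CDC42BPB, whose product MRCKβ is the close paralog with the same activators, was at 30.28 and 29.11 FPKM in vector 1 and 2, 27.29 in MRCKα KO, 25.7 in MRCKβ KO, and 23.42 and 23.47 in DKO 1 and 2. Its replicates were close to each other, with both DKO libraries lowest and both vector libraries highest. In DKO against vector the edgeR log2 fold change was -0.37 ± 0.11 (SE, unadjusted p = 0.0132), and the adjusted p was 1. With CDC42BPB targeted in 3 of 6 libraries it was -0.21 ± 0.08 (SE, unadjusted p = 0.0398, adjusted p = 0.999), and with CDC42BPA targeted it was -0.17 ± 0.08 (SE, unadjusted p = 0.0829, adjusted p = 1). The MRCKα KO library, in which CDC42BPB was not targeted, was also below both vector libraries. CDC42BPB was the single member with an unadjusted p under 0.05, 1 of 7 tested in DKO against a background of 2.39% of 13123 genes, and 1 of 6 tested for targeting of CDC42BPB against 2.04% of 13062 genes. Under every alternative run for DKO its value stayed between -0.41 and -0.33, and none of these passed the adjusted threshold.

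CDC42BPG, which encodes MRCKγ, was near the limit of detection at 0.37 and 0.21 FPKM in vector 1 and 2, 0.12 in MRCKα KO, 0.25 in MRCKβ KO, and 0.22 and 0.05 in DKO 1 and 2. These values rest on 21, 10, 5, 10, 9 and 2 expected counts in the same order. It was the least abundant member in every library, with at most 0.242% of the summed FPKM of the family. Between MRCKα KO and both vector libraries the log2 ratio of counts per total was -1.61 (95% exact interval -3.33 to -0.24), while vector 1 and vector 2 were 1.03 apart (-0.12 to 2.28) and DKO 1 and DKO 2 were 2.18 apart (-0.1 to 5.43). Such intervals cover counting error only. The gene passed the count filter only for DKO against vector, through the vector libraries where it is high, so its lower value in DKO supports nothing. There edgeR gave a log2 fold change of -1.48 ± 0.81 (SE, unadjusted p = 0.113, adjusted p = 1). This value on few counts depended on single libraries, at -2.9 without DKO 1 and -0.78 without DKO 2. With no library left out it was between -1.57 and -1.15 over the alternatives run. No knockout library was above vector 1 in FPKM or in counts. In FPKM, MRCKβ KO and DKO 1, at 0.25 and 0.22, were above vector 2 at 0.21, while in counts no knockout library was above vector 2.

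**Figure D1:**
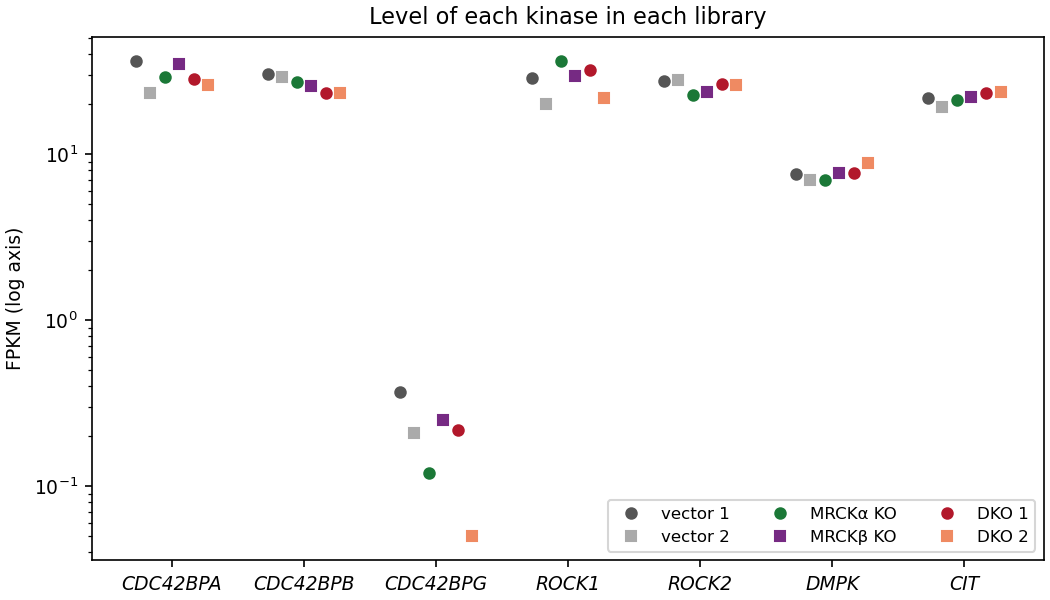
Level of each kinase in each library, as FPKM on a log axis, with 1 point per library and no error bars. CDC42BPG lies below 1 FPKM in all 6 libraries, DMPK lies between 6.98 and 8.81 FPKM, and the other 5 kinases lie between 19.29 and 36.73 FPKM.

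ROCK1, a RhoA effector that drives stress fibre formation and contraction, was at 28.9 and 20.24 FPKM in vector 1 and 2, 36.73 in MRCKα KO, 29.73 in MRCKβ KO, and 32.08 and 21.95 in DKO 1 and 2. It was highest in MRCKα KO, but both replicate pairs were also far apart, with replicate 1 above replicate 2 in vector and in DKO. The coefficient of variation over the 6 libraries was 22.0%, against a median of 10.6% (quartiles 7.71% and 14.4%) in 4701 genes with a mean between those of DMPK and CDC42BPA, a range in which ROCK1 is near the upper end. The edgeR log2 fold change was 0.17 ± 0.21 (SE, unadjusted p = 0.45, adjusted p = 1) with CDC42BPA targeted, -0.09 ± 0.21 (SE, unadjusted p = 0.692, adjusted p = 0.999) with CDC42BPB targeted and 0.08 ± 0.24 (SE, unadjusted p = 0.736, adjusted p = 1) in DKO. Without the MRCKα KO library the first of these was -0.14 and the second 0.22, and the DKO value was between -0.22 and 0.35 with 1 library left out, so no direction held for ROCK1.

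ROCK2, the other RhoA-activated ROCK kinase, was at 27.5 and 27.93 FPKM in vector 1 and 2, 22.64 in MRCKα KO, 23.73 in MRCKβ KO, and 26.48 and 26.29 in DKO 1 and 2. Its replicates were close, and both single knockout libraries were lower than any vector or DKO library. How many of all genes have this pattern was not counted, and each single knockout is 1 library. In DKO against vector the edgeR log2 fold change was -0.1 ± 0.11 (SE, unadjusted p = 0.397, adjusted p = 1). It was -0.1 ± 0.12 (SE, unadjusted p = 0.406, adjusted p = 1) with CDC42BPA targeted and 0.01 ± 0.12 (SE, unadjusted p = 0.96, adjusted p = 0.999) with CDC42BPB targeted, and without the MRCKα KO library these were 0.12 and -0.22. The interaction, which asks whether targeting one gene has another effect when the other is targeted too, was 0.44 ± 0.19 (SE, unadjusted p = 0.0585, adjusted p = 1) for ROCK2 and -0.63 ± 0.4 (SE, unadjusted p = 0.167, adjusted p = 1) for ROCK1. The ROCK2 interaction lay between 0.42 and 0.47 and the ROCK1 interaction between -0.94 and -0.15 over the alternatives run, and neither passed the adjusted threshold in any of them. Each rests on 1 library of each single knockout.

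DMPK, the kinase whose gene carries the repeat expanded in myotonic dystrophy, was at 7.63 and 6.98 FPKM in vector 1 and 2, 7.05 in MRCKα KO, 7.73 in MRCKβ KO, and 7.72 and 8.81 in DKO 1 and 2. CIT, which acts in the last step of cell division, was at 21.78 and 19.29 FPKM in vector 1 and 2, 21.28 in MRCKα KO, 22.12 in MRCKβ KO, and 23.34 and 23.8 in DKO 1 and 2. Both genes varied little, with coefficients of variation of 8.6% and 7.33%. In DKO against vector the edgeR log2 fold change was 0.12 ± 0.16 (SE, unadjusted p = 0.489, adjusted p = 1) for DMPK and 0.15 ± 0.12 (SE, unadjusted p = 0.245, adjusted p = 1) for CIT. The DMPK value was 0.03 without DKO 2 and 0.19 without DKO 1, and the CIT value 0.07 without vector 2 and 0.24 without vector 1. With CDC42BPB targeted the values were 0.14 ± 0.13 (SE) for DMPK and 0.1 ± 0.09 (SE) for CIT, and with CDC42BPA targeted they were -0.02 ± 0.13 (SE) and 0.05 ± 0.09 (SE). Over the alternatives run, with CDC42BPB targeted DMPK was between 0.08 and 0.2 and CIT between 0.06 and 0.14. With CDC42BPA targeted DMPK was between -0.08 and 0.04 and CIT between 0.02 and 0.09.

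**Figure D2:**
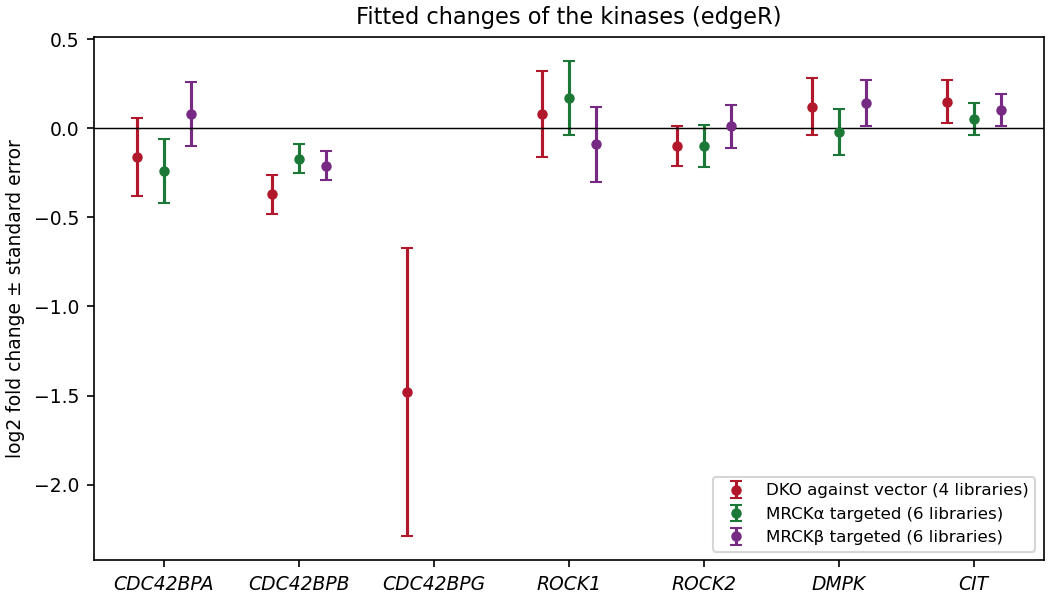
Fitted log2 fold change of each kinase from edgeR (points), with a standard error derived from the F statistic of the test (bars). Values are for DKO against vector over 4 libraries and for each targeted gene over 6 libraries. The DKO value of CDC42BPB, -0.37, is several standard errors from 0, and the CDC42BPG value of -1.48 has the widest bar.

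Across all genes, edgeR called 0 of 13123 genes at an adjusted p under 0.05 in DKO against vector, a background of 0%, and 0 of the 7 members. At an unadjusted p under 0.05 there were 313 genes, and DESeq2 called 4 genes and limma 0 after adjustment. Without DKO 1 edgeR called 5 genes after adjustment and without vector 1 it called 1, with no member among them. With CDC42BPA targeted, edgeR called 0 of 13062 genes (0%) and 0 of 6 members after adjustment, DESeq2 1 and limma 0, and at an unadjusted p under 0.05 edgeR counted 486 genes (3.72%) and 0 of 6 members. With CDC42BPB targeted, edgeR, DESeq2 and limma each called 0 genes (0% of 13062) and 0 of 6 members after adjustment, with 266 genes at an unadjusted p under 0.05 by edgeR. For the interaction, edgeR called 0 genes (0%) and 0 of 6 members, DESeq2 1 and limma 0, with 199 genes (1.52%) and 0 of 6 members at an unadjusted p under 0.05. With a block for the replicate number, edgeR called 5 genes after adjustment in DKO and 5 with CDC42BPA targeted, no member among them. It called 0 with CDC42BPB targeted and 0 for the interaction. At an unadjusted p under 0.05 the block gave 796, 1226, 860 and 216 genes in the same order. That the numbers pair the libraries is not shown. The unadjusted counts without the block depended on single libraries. In DKO the count was 1154 without vector 1, 805 without vector 2 and 135 without DKO 2. With CDC42BPA targeted it was 1335 without vector 2 and 199 without MRCKα KO. With CDC42BPB targeted it was 496 without vector 1, 487 without vector 2, 147 without MRCKα KO and 112 without DKO 1, and for the interaction it was 1377 without vector 1, 358 without DKO 1 and 61 without DKO 2. Over all alternatives the lowest adjusted p of any member was 0.353 among 359 fitted values. A p above the threshold does not show that a level was the same.

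Whether the libraries of different groups overlapped was counted for all genes with at least 10 counts in at least 2 libraries. In DKO against vector, 4 of 7 members had no overlap in FPKM, CDC42BPB and ROCK2 with lower and DMPK and CIT with higher values in DKO, against 29.2% of 13375 genes. Of the libraries with CDC42BPA targeted against those without, 0 of 7 members had no overlap, against 10.4% of genes. With CDC42BPB targeted, 3 of 7 had none, CDC42BPB lower and DMPK and CIT higher, against 8.08% of genes. The margins for DMPK and CIT were small. DMPK was at 7.63 FPKM in vector 1 and 7.72 in DKO 1. CIT was at 21.78 FPKM in vector 1 and 22.12 in MRCKβ KO. With FPKM rescaled to the same sum in every library (TPM), both genes overlapped in the comparison by CDC42BPB targeting. In TPM, DMPK was at 18.55 in vector 1 and 18.44 in MRCKβ KO, and CIT at 52.96 and 52.77. The share of all genes was not counted in TPM. On the CPM scale, counts scaled by library total with TMM factors, 5 of 7 members had no overlap in DKO against 28.9% of genes, 1 of 7 with CDC42BPA targeted against 10.5% and 2 of 7 with CDC42BPB targeted against 8.19%. CIT then overlapped in the last comparison. CDC42BPG was without overlap in the first 2, but it reached 10 counts only in vector 1, vector 2 and MRCKβ KO, so it entered the count through the libraries where it is high and its direction is no finding.

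A fold rule after the study's methods was also applied to FPKM, with genes more than 2-fold apart between replicates left out and a ratio of 2-fold or more called. The study also left out poorly expressed genes, but no limit is given in the sources used here, and no such filter was applied in the counts that follow. In MRCKα KO against vector it called 1 of 7 members, CDC42BPG at a log2 ratio of -1.27 on 5 counts, against 4.37% of 12864 genes. It called 0 of 7 members in MRCKβ KO, against 3.44% of 12903 genes. In DKO it called 0 of 6, with CDC42BPG left out for the gap between its replicates, against 1.75% of 12254 genes. The member furthest from 0 after CDC42BPG was ROCK1 in MRCKα KO, at a log2 ratio of 0.58. The CDC42BPG call was lost at a mean of at least 1 FPKM, with 1 or 0.1 added to each FPKM and without vector 1, so that 0 members were called in MRCKα KO in each of these. In DKO, CDC42BPG was called at -1.1 with no exclusion between replicates and at -2.54 without DKO 1, where it rests on the 2 counts of DKO 2.

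The single knockout libraries were set beside the gaps between replicates, using counts per total with 95% exact intervals. ROCK1 was at a log2 ratio of 0.5 (0.43 to 0.58) in MRCKα KO and 0.23 (0.15 to 0.31) in MRCKβ KO relative to both vector libraries. Its gaps were 0.5 (0.4 to 0.6) between vector 1 and vector 2 and 0.54 (0.45 to 0.64) between DKO 1 and DKO 2. The ratio in MRCKα KO was about as large as these gaps, and that in MRCKβ KO was smaller. On FPKM the ratio in MRCKα KO was 0.58. ROCK2 was at -0.3 (-0.38 to -0.22) in MRCKα KO and -0.21 (-0.29 to -0.14) in MRCKβ KO, beyond its gaps of -0.02 (-0.1 to 0.06) between the vector and -0.02 (-0.11 to 0.06) between the DKO libraries. CDC42BPB was at -0.15 (-0.23 to -0.07) in MRCKα KO and -0.21 (-0.29 to -0.13) in MRCKβ KO. These were larger in size than its gaps of 0.07 (-0.02 to 0.16) and 0 (-0.1 to 0.1). In size, however, both intervals overlapped that of the vector gap. Relative to vector 2 alone, CDC42BPB in MRCKα KO was at -0.11 (-0.21 to -0.02). CDC42BPA was at -0.06 (-0.13 to 0) in MRCKα KO and 0.23 (0.17 to 0.29) in MRCKβ KO, within its gap of 0.67 (0.59 to 0.74) between the vector libraries, though the second was beyond its gap of 0.1 (0.02 to 0.18) between the DKO libraries. These ratios compare single libraries, not conditions.

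**Figure D3:**
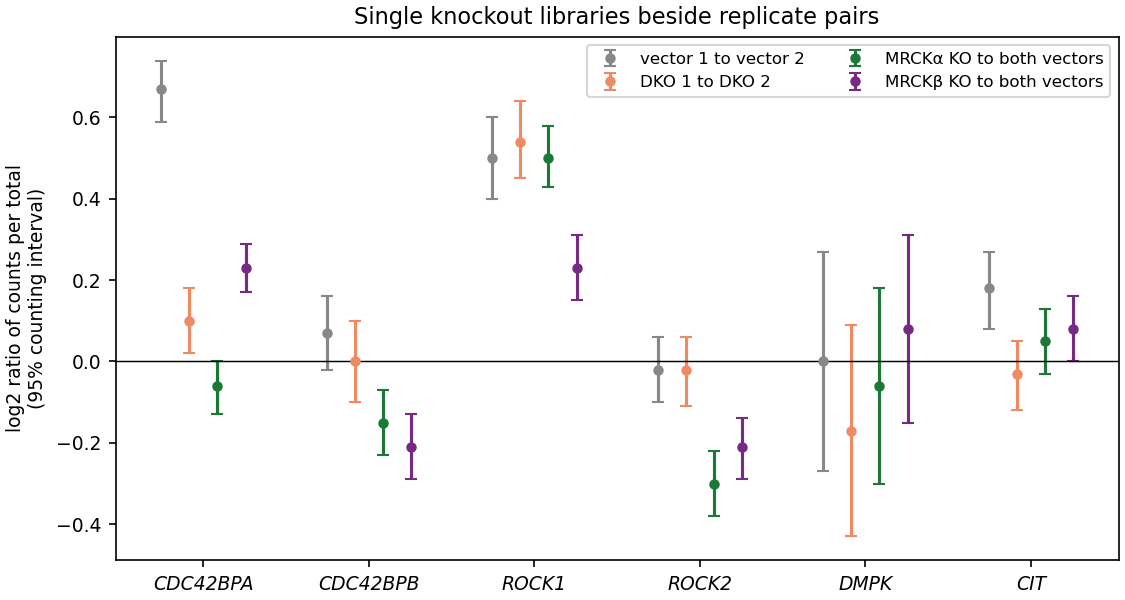
Log2 ratio of counts per total for 6 kinases (CDC42BPG left out), with 95% exact counting intervals as bars, for each single knockout library against both vector libraries and for the 2 replicate pairs. The replicate gaps of ROCK1, 0.5 and 0.54, are about as large as its ratio of 0.5 in MRCKα KO, while those of ROCK2 are close to 0.

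In the order of mean FPKM, CDC42BPA came first with 29.7 ± 5.07 (SD, n = 6), followed by ROCK1 with 28.3 ± 6.21, CDC42BPB with 26.5 ± 2.86, ROCK2 with 25.8 ± 2.12, CIT with 21.9 ± 1.61, DMPK with 7.65 ± 0.658 and CDC42BPG with 0.203 ± 0.11. This order pools all 6 libraries. In the 2 vector libraries alone the means were 29.9 FPKM for CDC42BPA, 29.7 for CDC42BPB, 27.7 for ROCK2 and 24.6 for ROCK1. ROCK1 was thus the lowest of these 4. In the order over 6 libraries, neighbours among the first 4 members were not separated, and pairs that are not neighbours were not tested. CDC42BPA exceeded ROCK1 by 0.09 log2 units in level (exact permutation p = 0.438, adjusted 0.657), ROCK1 exceeded CDC42BPB by 0.07 (exact permutation p = 0.688, adjusted 0.688) and CDC42BPB exceeded ROCK2 by 0.04 (exact permutation p = 0.625, adjusted 0.688), with 4, 3 and 4 of 6 libraries in that direction. ROCK2 exceeded CIT by 0.23 log2 units, CIT exceeded DMPK by 1.52 and DMPK exceeded CDC42BPG by 5.47, in 6 of 6 libraries each. For each of these last 3 pairs the two-sided exact permutation p was 0.0312, the smallest that 6 libraries allow. After adjustment over the 6 neighbour pairs it was 0.0624. The pairs were taken from the order of means in these same libraries, so p gives no separate support for that order. Libraries of different groups were treated alike. The difference between DMPK and CDC42BPG shrank to 2.85 when 1 was added to each FPKM, since CDC42BPG is below 1 FPKM.

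The paralog pairs were then compared within each library, as log2 ratios of FPKM. CDC42BPA to CDC42BPB was at 0.27 and -0.32 in vector 1 and 2, 0.11 in MRCKα KO, 0.44 in MRCKβ KO, and 0.27 and 0.15 in DKO 1 and 2, so that CDC42BPA made up 44.3% to 57.4% of their sum with CDC42BPG. ROCK1 to ROCK2 was at 0.07, -0.46, 0.7, 0.33, 0.28 and -0.26 in the same order, and ROCK1 made up 42.0% to 61.9% of the ROCK sum. Neither pair had a dominant paralog in all libraries, and vector 2 had the lowest ratio of both pairs. The difference in the CDC42BPA to CDC42BPB ratio was 0.05 with CDC42BPA targeted (exact permutation p = 0.9) and 0.27 with CDC42BPB targeted (exact permutation p = 0.2), and without vector 2 these were -0.18 and 0.10. For ROCK1 to ROCK2 it was 0.26 (exact permutation p = 0.5) and 0.01 (exact permutation p = 1), which were 0.04 and -0.27 without vector 2 and 0.51 and 0.20 without DKO 2. With 3 against 3 libraries the smallest two-sided p is 0.1, so no single ratio could pass 0.05.

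The summed MRCK level was 67.1 and 52.6 FPKM in vector 1 and 2, 56.8 in MRCKα KO, 60.9 in MRCKβ KO, and 52.0 and 49.6 in DKO 1 and 2. The summed ROCK level was 56.4, 48.2, 59.4, 53.5, 58.6 and 48.2 FPKM. As a log2 ratio, MRCK to ROCK was at 0.25, 0.13, -0.06, 0.19, -0.17 and 0.04, and the 3 libraries with CDC42BPA targeted were below the 3 without. Their mean difference was -0.25, with an exact permutation p of 0.1, the smallest possible, over 6 ratio comparisons in all. It was between -0.31 and -0.2 with 1 vector or DKO library left out. With CDC42BPB targeted the difference was -0.09 (exact permutation p = 0.6). Both sums enter the ratio, and the ROCK sum of DKO 2 was as low as that of vector 2, so the ratio does not show that ROCK RNA was higher.

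**Figure D4:**
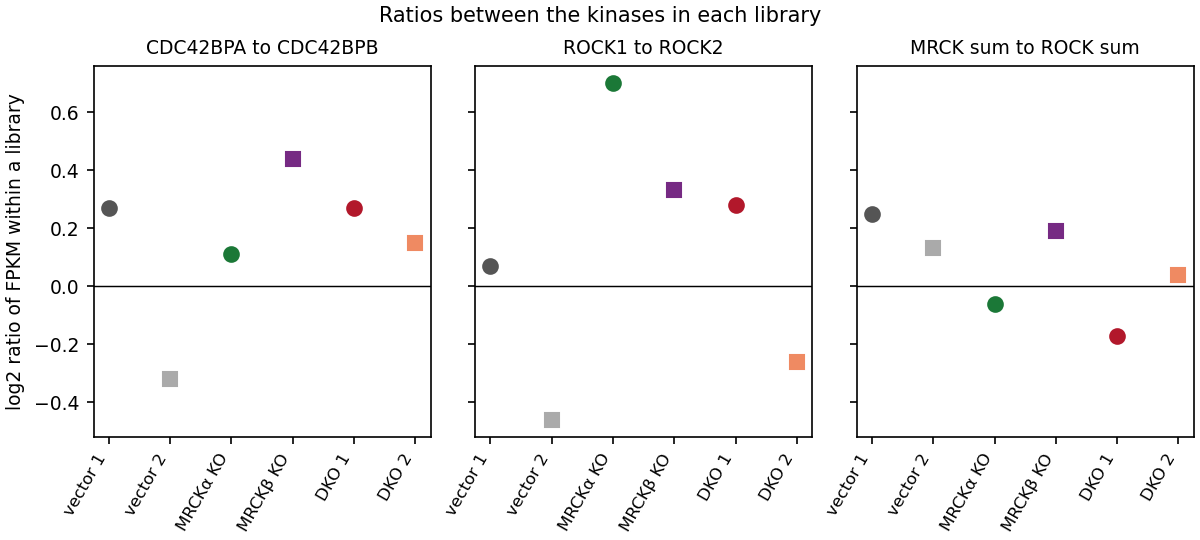
Log2 ratio of FPKM within each library for CDC42BPA to CDC42BPB, ROCK1 to ROCK2 and the MRCK sum to the ROCK sum, 1 point per library, no error bars. In the last panel MRCKα KO, DKO 1 and DKO 2, at -0.06, -0.17 and 0.04, are below the other libraries, which lie between 0.13 and 0.25.

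How far reads could be assigned to each kinase was examined with the GENCODE v29 transcripts, by looking for 50-base stretches, the read length, that also occur in another gene on either strand. No stretch was shared between members. ROCK1 shared 13.8% of its 9435 stretches with other genes. Of these, 1223 were shared with processed transcripts of its partial copy ROCK1P1. Another class of ROCK1P1 transcripts shared 345, which may be in part the same ones. The level of ROCK1 is therefore uncertain, by an amount that was not measured. CDC42BPB shared 12.8%, mainly with AMN and the antisense gene AL117209.1, and DMPK shared 14.0%, with AC011530.1 and the antisense gene DM1-AS among others. CDC42BPA shared 2.79% with an antisense gene, CIT 0.381%, ROCK2 0.0971% and CDC42BPG 0%. The sources used here do not say whether counting used strand, so CDC42BPB and DMPK are uncertain as well. The expected counts of ROCK1 and CDC42BPB were nonetheless exactly whole, as deposited with 2 decimals, in 6 of 6 libraries, and those of ROCK2 and DMPK in 0 of 6.

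The proteins are related to different degrees. Over aligned residues, ROCK1 and ROCK2 were 67.3% identical and MRCKα and MRCKβ 63.2%. MRCKγ was 49.9% identical to MRCKα and 48.4% to MRCKβ. DMPK, which is shorter with 629 residues, was 53.6% to 54.8% identical to the 3 MRCKs over its aligned part, and 39.5% and 42.0% to ROCK1 and ROCK2. CIT, the longest with 2069 residues, was at most 42.0% identical to another member. The most alike pair in sequence, ROCK1 and ROCK2, had a Pearson correlation of -0.674 between their log2 CPM over the 6 libraries, given as a description.

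The genes with a pattern most like that of a member were taken by Pearson correlation of log2 CPM over the 6 libraries among 9455 genes, as a description. For CDC42BPA they were SMIM14 (r = 0.998), AP2B1 (r = 0.993) and TMSB4X (r = 0.987), and SMIM14 was, like CDC42BPA, highest in vector 1 at 9.04 FPKM and lowest in vector 2 at 4.66. For CDC42BPB they were NT5DC1 (r = 0.979), SLC25A15 (r = 0.977) and SPIN1 (r = 0.974). For ROCK1 they were SAMD12 (r = 0.999), ANKRD1 (r = 0.996) and PFKFB2 (r = 0.995), and for ROCK2 they were FMNL3 (r = 0.99), PATZ1 (r = 0.983) and GPBP1 (r = 0.982). CPM is not corrected for transcript length, and the likeness need not hold on FPKM, where SAMD12 was at 5.73 in vector 2 and 4.83 in MRCKβ KO while ROCK1 was at 20.24 and 29.73. With 6 libraries such values are common, and 300 genes were above 0.9 for CDC42BPA, 64 for CDC42BPB, 227 for ROCK1 and 71 for ROCK2. Among the members, CDC42BPA and ROCK1 were at 0.565, CDC42BPA and CDC42BPB at 0.28, and CDC42BPB and CIT at -0.722. The libraries shared by all these values include the 2 vector libraries, in which genes of 6000 bases or more were a median of 0.04 above their mean over the libraries in vector 1 and -0.07 in vector 2 on the log2 scale. All members but DMPK and CDC42BPG are of that length, and the part of length in their values was not tested.

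Genes that act around the kinases were taken from lists of 60 genes, of which 58 were in the table. None had an adjusted p under 0.05 in edgeR in DKO (55 tested) or with CDC42BPA or CDC42BPB targeted (54 tested each), and 1, 5 and 1 had an unadjusted p under 0.05, against 2.39%, 3.72% and 2.04% of all genes tested. The median log2 fold change over the list genes was 0.01, 0.02 and 0.01, and over all genes tested 0, 0 and 0.01.

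Of the GTPases that activate the kinases, RHOB was at 7.31 and 6.88 FPKM in the vector libraries, 5.41 in MRCKα KO, 10.28 in MRCKβ KO, and 6.77 and 8.01 in DKO. It had log2 fold changes of -0.45 ± 0.14 (SE) with CDC42BPA targeted and 0.49 ± 0.14 (SE) with CDC42BPB targeted, each adjusted for the other (edgeR, unadjusted p = 0.0144 and 0.01, adjusted p = 1 and 0.999). The single knockouts thus lay on opposite sides of vector and DKO close to it. CDC42, the activator of MRCKs, was at 124.08 to 138.96 FPKM in vector and 122.54 to 123.24 in DKO, with a DKO value of -0.11 ± 0.12 (SE), and RHOA, the activator of ROCKs, was at 318.53 to 368.14 and 349.84 to 365.63 FPKM, with a DKO value of 0.04 ± 0.13 (SE). RHOJ, a relative of CDC42, had the value furthest from 0 in DKO, 0.12 ± 0.35 (SE), with a mean of 4.69 FPKM.

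Among 12 binding partners and inhibitors the median DKO value was 0.37 over the 10 tested, against 0 for all genes, and 80.0% were above 0, against 49.3% of all genes. The medians of this list with CDC42BPA and CDC42BPB targeted were 0.13 and 0.15. The differences from all genes were not tested. The highest DKO value of the list, 1.17, came from a gene with a mean under 1 FPKM. RND3, which binds and inhibits ROCK1, was at 40.37 and 29.85 FPKM in the vector libraries, 54.18 in MRCKα KO, 44.87 in MRCKβ KO, and 50.08 and 48.35 in DKO, with a DKO value of 0.46 ± 0.17 (SE, edgeR, unadjusted p = 0.0334, adjusted p = 1). All 4 knockout libraries were above both vector libraries, but how many of all genes have this pattern was not counted. GEM and RRAD, GTPases that inhibit ROCK signalling, had DKO values of 0.28 ± 0.32 (SE) and 0.76 ± 0.47 (SE), and LURAP1L, a relative of the adaptor that links MRCK to MYO18A, had 0.49 ± 0.38 (SE). With CDC42BPA targeted, MYO18A, the myosin in that MRCK complex, had a log2 fold change of -0.5 ± 0.17 (SE, edgeR, unadjusted p = 0.0204, adjusted p = 1). MYO18A was at 35.26 and 22.45 FPKM in vector 1 and 2, 21.79 in MRCKα KO, 33.53 in MRCKβ KO, and 23.41 and 22.08 in DKO 1 and 2, so vector 2 lay with the targeted libraries. SHROOM2, of a family that binds ROCK, had -0.6 ± 0.24 (SE, edgeR, unadjusted p = 0.0382, adjusted p = 1) with 3.59 and 2.44 FPKM in vector 1 and 2, 2.06 in MRCKα KO, 3.32 in MRCKβ KO, and 2.51 and 2.41 in DKO 1 and 2, where vector 2 again lay with the targeted libraries.

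Among 18 substrates, 17 were in the table and 16 tested, with a median DKO value of -0.09. LIMK1, the LIM kinase phosphorylated by both MRCK and ROCK, was at 23.53 and 22.66 FPKM in the vector libraries, 21.11 in MRCKα KO, 24.28 in MRCKβ KO, and 20.54 and 17.67 in DKO. Its value with CDC42BPA targeted was -0.27 ± 0.11 (SE, edgeR, unadjusted p = 0.0402, adjusted p = 1). DPYSL2, a microtubule regulator that ROCK phosphorylates, had -0.34 ± 0.13 (SE, edgeR, unadjusted p = 0.0343, adjusted p = 1) with CDC42BPA targeted, and its 16.34 FPKM in vector 2 lay below the 16.77 in DKO 1. LIMK2 had -0.27 ± 0.14 (SE) with CDC42BPB targeted, and MYL12B, a myosin light chain, -0.35 ± 0.26 (SE) in DKO with DKO 2 at 348.25 FPKM and DKO 1 at 584.24.

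The 8 related AGC kinases had a median DKO value of 0.02, with LATS1 at 0.24 ± 0.14 (SE) in DKO, MASTL at 0.09 ± 0.11 (SE) with CDC42BPA targeted and LATS2 at 0.18 ± 0.13 (SE) with CDC42BPB targeted. The 10 partners of citron kinase in cell division had medians of -0.06, 0.04 and -0.1 in DKO and with CDC42BPA and CDC42BPB targeted, and 0 of 10 had an unadjusted p under 0.05 by edgeR in any of these. In the same order 30.0%, 80.0% and 0.0% of them were above 0, against 49.3%, 49.2% and 51.6% of all genes tested. The difference in these shares was not tested. AURKB and KIF14 were at -0.12 ± 0.15 (SE) and -0.11 ± 0.12 (SE) in DKO, KIF20A and ECT2 at 0.17 ± 0.16 (SE) and 0.1 ± 0.09 (SE) with CDC42BPA targeted, and KIF23 and ANLN at -0.13 ± 0.09 (SE) and -0.12 ± 0.13 (SE) with CDC42BPB targeted. Of the neighbours of DMPK on chromosome 19, 4 of 5 were in the table, and SYMPK and SIX5, with means of 30.2 and 8.36 FPKM, had DKO values of 0.06 ± 0.12 (SE) and 0.05 ± 0.15 (SE).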

How the data were processed

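The authors had the 6 libraries sequenced by BGI as 50-base single-end reads. RSEM, Bowtie2, HISAT and GRCh38.p11 are named in the submitters' processing notes, without versions or roles. The expected counts that were deposited estimate the reads of each gene, with no normalization. The deposited FPKM values are scaled by transcript length and library total and rounded to 2 decimals.

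Expected counts were rounded, filtered with filterByExpr, normalized by TMM and tested with edgeR 4.0.16 (quasi-likelihood test, Benjamini-Hochberg adjustment, threshold 0.05) in R 4.3.3. Over 6 libraries, the effect of each target was fitted in an additive model with the other as a term, and the interaction with both and their product. For these fits the filter was grouped by the targeted gene, which was not set in advance. Each standard error given with an edgeR log2 fold change is its absolute value over the square root of the F statistic. For CDC42BPB in DKO this gave 0.11, while the standard error from DESeq2 was 0.15. DESeq2 1.42.0, limma 3.58.1 on FPKM of genes averaging at least 0.5, as log2(FPKM + 0.1) or log2(FPKM + 1), other normalizations, filters and models, a replicate block and each library left out in turn were alternatives. The edgeR fits and the fold rule were tested on simulated data. Levels of neighbouring members and ratios were compared by exact permutation tests.

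In the fold rule, genes listed at 0 in a whole group were left out. This was decided after the counts with such genes had been seen, when those counts were also known to differ from earlier ones, and the counts with these genes included are given among the alternatives. The overlap counts, the length classes and the use of the single knockouts as left-out libraries were also chosen after seeing the data.

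The members were chosen by gene symbol and not by their values, but they and the lists were chosen with earlier results of these data known. Genes named are the 7 members, in each list the 2 with a mean of at least 1 FPKM furthest from 0 in each edgeR comparison and any with an unadjusted p under 0.05, and the 3 most correlated with CDC42BPA, CDC42BPB, ROCK1 and ROCK2 among genes with at least 100 counts in every library. A gene that this rule names is not reported here.

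Replicates come from separate transductions or guide sets of 1 cell line, and p-values measure the spread between these libraries. Positions and stretches were taken from GENCODE v29 on GRCh38, while the deposited genes are listed by Entrez gene ID. Residue counts and identities come from the coding sequence of 1 transcript per gene, and the stretches from the whole of that transcript.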

Additional observations from a re-analysis of the deposited data

How the results depend on the processing

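No member passed an adjusted p under 0.05 among 359 fitted values under alternatives, and 332 of them had the direction of the reported value while 27 were reversed. In the fold changes where an arm was left with 1 library, that lone library is assumed to vary like the other groups. Leaving out single knockout libraries, leaving out libraries from the interaction and counting genes at 0 in the fold rule were chosen after seeing the data. Where a direction or count moved, the cause was not tested.

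With DESeq2 the number of genes called was 4 in DKO, 1 with CDC42BPA targeted and 1 for the interaction, in place of 0 with edgeR. With the replicate number as a replicate block it was 5 in DKO and 5 with CDC42BPA targeted, and the block gave a CDC42BPA interaction of 0.05 in place of -0.32. Unadjusted counts of 313, 486 and 266 in DKO and with CDC42BPA and CDC42BPB targeted were 796, 1226 and 860 with the block. With DESeq2 the DKO, CDC42BPB and interaction counts of 313, 266 and 199 were 203, 161 and 93. Over 12264 genes the gap between replicates in vector correlated with that in DKO at r = 0.385, but with 2 pairs this does not show that the numbers pair the libraries. With all libraries kept, the other reversals were of values between -0.02 and 0.01. For DMPK with CDC42BPA targeted, both limma scales gave 0.02 and the length offset 0.00. For ROCK2 with CDC42BPB targeted, no filter and both limma scales gave 0.00 and the length offset -0.01. For the CDC42BPB interaction, both limma scales gave -0.01. The ROCK1 to ROCK2 difference with CDC42BPB targeted was -0.01 on expected counts.

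The fold rule, which called 562, 444 and 215 genes in MRCKα KO, MRCKβ KO and DKO, called 59, 18 and 17 with 1 added to each FPKM. It called 163, 94 and 48 at a mean of at least 1 FPKM, and 1398, 1232 and 1237 without the exclusion between replicates. With genes at 0 in a whole group counted as past the fold, it called 1148, 1003 and 375. With 1 library left out, which also ends the exclusion between the replicates of that group, it called 1422 to 1552, 1174 to 1624 and 485 to 691.

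With 1 library left out, the genes called in DKO numbered 0 to 5, with 5 reached without DKO 1. DKO values ranged from -0.46 to 0.21 for CDC42BPA, where 0.21 came without vector 1, and from -0.22 to 0.35 for ROCK1, which was -0.22 without DKO 1 and -0.14 without vector 2. With CDC42BPA targeted the ranges were -0.14 to 0.49 for ROCK1, -0.32 to 0.12 for ROCK2 and -0.08 to 0.04 for DMPK, where the reversed values of -0.14, 0.12 and 0.04 came without MRCKα KO, and DMPK was also reversed without DKO 1, at 0.01. With CDC42BPB targeted they were -0.08 to 0.23 for CDC42BPA, reversed without vector 2 or MRCKβ KO, -0.40 to 0.22 for ROCK1 and -0.22 to 0.23 for ROCK2, the last 2 reversed without MRCKα KO. ROCK1 was also reversed without DKO 2, at 0.06, and ROCK2 without DKO 1 or DKO 2, at -0.03 each. The interaction for CDC42BPA was -0.69 without vector 1 and -0.03 without vector 2. The interaction ranged from -0.03 to 0.04 for CDC42BPB and from -0.04 to 0.12 for CIT, both reversed without vector 1, and CDC42BPB also without DKO 1, at 0.00. ROCK1 over CDC42BPB in level was -0.01 to 0.19, reversed without DKO 1. CDC42BPA over ROCK1 was 0.04 to 0.14, and CDC42BPB over ROCK2 was 0.02 to 0.08. The ratio differences ranged from -0.18 to 0.12 for CDC42BPA to CDC42BPB with CDC42BPA targeted, from -0.27 to 0.20 for ROCK1 to ROCK2 and from -0.10 to 0.01 for MRCK to ROCK, both with CDC42BPB targeted. The values -0.18 and -0.27 came without vector 2 and 0.01 without DKO 1. The first was also reversed without DKO 1, at 0.00, and the second without vector 1, at 0.00, and without DKO 1, at -0.07.

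Depth limits CDC42BPG most, with 2 to 21 counts per library, whereas the other members had at least 215. Of these, CDC42BPA and ROCK1 in both replicate pairs and CIT between the vector libraries had gaps whose 95% counting interval left out 0.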
